A study of Mus musculus with 8 samples.

Results

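The genes for the proteins of the cytosolic ribosome were followed in bulk RNA-seq of mouse distal colon. A gene was included when its symbol was Rpl or Rps followed by a number and its usual letter suffixes, or was Rplp0, Rplp1, Rplp2 or Rpsa, and genes with the pseudogene ending "-ps" and the Rps6k kinases were left out. The rule found 89 of the 52143 genes in the table, with no symbol on more than 1 row. They comprised 46 genes of the large (60S) subunit, 31 genes of the small (40S) subunit, 7 paralogs of core genes (Rpl3l, Rpl7l1, Rpl10l, Rpl22l1, Rpl39l, Rps4l, Rps27l) and 5 further loci that the pattern took in (Rpl6l, Rpl32l, Rps12l1, Rps3a2, Rps3a3). Of the paralogs, Rps4l is annotated as a pseudogene and had no coding transcript. The 5 further loci are all annotated as processed pseudogenes. Of the 89, 81 had at least 1 transcript per 1000000 (TPM, the relative abundance after length correction) in at least 4 samples and were tested.

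Both groups carried Cre-ERT driven by the Villin1 promoter, which is active in the epithelium of the intestinal villi and crypts, and both received tamoxifen. Control mice (4 samples) were the Villin1-Cre-ERT littermates. SiglecXII mice (4 samples) carried in addition the human SIGLEC12 coding sequence, knocked in at ROSA26 behind a floxed EGFP-stop cassette and a CAG promoter, so that Cre would switch it on in epithelial cells only. Per the labels and the methods, female mice were given tamoxifen (10 mg/ml) for 5 days at 8 weeks of age, and colons were taken 7 days after the last dose without carcinogen. The series text speaks of 3 mice per condition while the labels list 4 samples per group, so a p-value here measures the spread between these samples, part of which may be technical. The table has no row for SIGLEC12, EGFP or Cre, and the genotype labels were not checked by expression. The tissue was bulk colon, where fewer cells of a type and less RNA per cell cannot be told apart.

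The cytosolic ribosome is built from the 60S subunit, which joins amino acids, and the 40S subunit, which reads the mRNA. Each particle needs most of its core proteins in equal number, and free ribosomal proteins are degraded, so their mRNAs are normally kept in proportion. Most vertebrate ribosomal protein mRNAs start with a run of pyrimidines, the 5′ terminal oligopyrimidine (TOP) motif, through which mTOR signalling controls their translation, and MYC drives the transcription of ribosome genes. In the colon, demand for ribosomes is high in dividing crypt cells and in secretory cells. These genes have also left many intronless copies across the mammalian genome, some of which still match the spliced mRNA base for base. Copies held part of the TPM in the table.

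Those copies are shown first because they decide how the levels can be read. Against the GENCODE M21 transcripts (GRCm38), 299 other genes had at least 50% of their 31-base windows inside a transcript of a ribosomal protein gene, 31 bases being the match length with which kallisto assigns reads by default. Of these, 18 had a mean of at least 100 TPM, and they belonged to 17 of the ribosomal protein genes. In 15 of the 18 the part aligned to the coding sequence of the functional gene was identical to it, and in the other 3 (Gm2000, Gm4332 and Gm9794) it differed at 1 base. The first 60 coding bases of Rpl5, whose protein carries 5S rRNA into the 60S subunit together with Rpl11, and of Rps12, a 40S protein, are printed beside their most abundant copies, and for Rpl35 the 60 bases around the single differing base are printed, with that base in capitals.
Rpl5, coding bases 1 to 60: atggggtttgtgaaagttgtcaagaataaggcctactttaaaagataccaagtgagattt
Gm15500, same bases: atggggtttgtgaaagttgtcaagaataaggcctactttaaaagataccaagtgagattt
Rps12, coding bases 1 to 60: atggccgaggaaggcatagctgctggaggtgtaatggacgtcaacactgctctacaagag
Rps12-ps3, same bases: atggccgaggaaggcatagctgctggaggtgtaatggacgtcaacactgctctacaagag
Rpl35, coding bases 58 to 117: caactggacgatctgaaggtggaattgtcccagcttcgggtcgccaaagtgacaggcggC
Gm2000, same bases: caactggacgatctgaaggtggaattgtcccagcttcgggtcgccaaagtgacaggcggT
A read of 100 bases that lies within an identical stretch fits both loci equally well and cannot by itself decide the split of TPM. Outside such stretches the loci can differ. Over all annotated transcripts, 26.9% of the 31-base windows of Rpl5 and 29.8% of those of Rps12 occurred in other genes. What set the split was not tested.

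The split often went to the copy. Rpl5 on chromosome 5 held 33.3 TPM on average over 8 samples, while Gm15500, at chr7:114705217-114706235 and annotated as a transcribed processed pseudogene, held 1755 TPM. Rps12 on chromosome 10 held 132 TPM against 2840 TPM for Rps12-ps3 on chromosome 19. Rpl12, a protein of the stalk base, held 34.2 TPM against 2146 TPM for Gm10275, and Rpl27 held 50.8 TPM against 1586 TPM for Rpl27-ps3. In 10 of the 77 core genes less than 50% of the TPM of the gene and its copies stood on the gene itself, with the smallest part in Rpl12 (1.56%) and Rpl5 (1.86%). When each core gene was summed with its copies, the lowest mean rose from that of Rpl5 to that of Rpl30 (655 TPM), and the ratio of the highest to the lowest core gene fell from 134 to 6.90. The plot of core genes with and without copies shows the few genes that move.

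**Figure D1:**
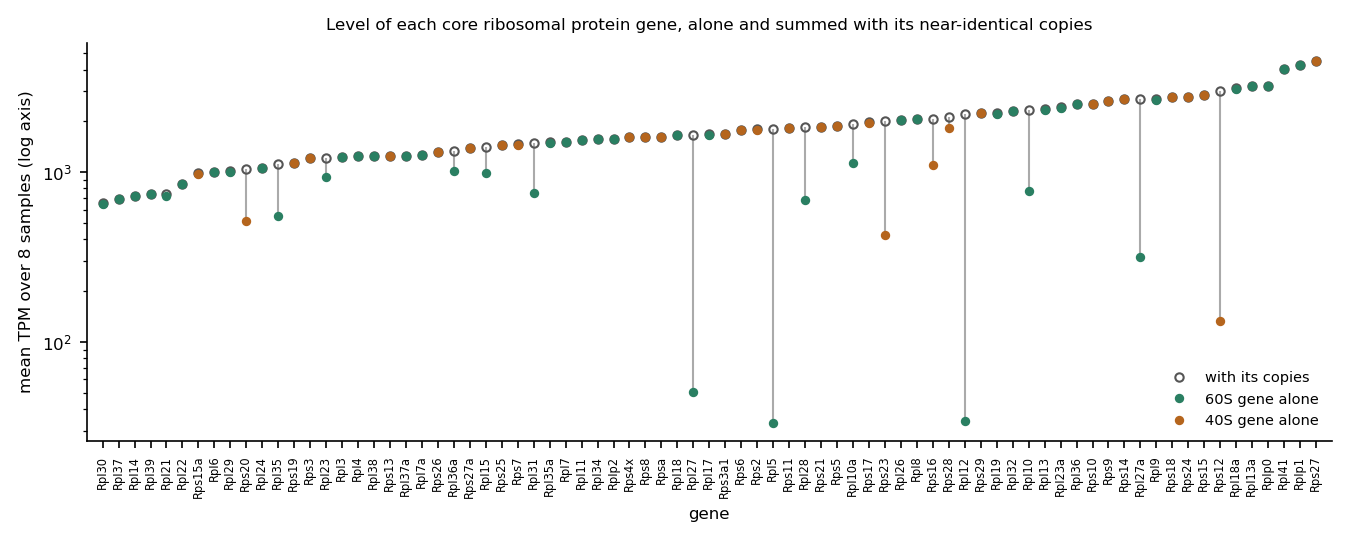
Mean TPM over 8 samples (log axis) of each of the 77 core ribosomal protein genes, filled points for the gene alone (green 60S, brown 40S) and open circles for the gene summed with its copies, joined by a line. Most genes sit on their circle, while Rpl5, Rpl12, Rpl27 and Rps12 lie between 33.3 and 132 TPM alone and between 1650 and 2974 TPM with copies.

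Paralogs with a diverged coding sequence are a different case. Rps27l, a p53-inducible relative of Rps27, matched it at 76.5% of 226 aligned coding bases, and Rpl22l1 matched Rpl22, an RNA-binding 60S protein, at 73.5% of 298. No 31-base window was shared in either pair. Differing bases are in capitals in the stretches printed for these pairs.
Rps27, coding bases 1 to 60: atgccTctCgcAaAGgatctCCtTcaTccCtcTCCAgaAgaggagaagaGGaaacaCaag
Rps27l, coding bases 1 to 60: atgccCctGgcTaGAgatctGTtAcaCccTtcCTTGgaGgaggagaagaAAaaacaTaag
Rpl22, coding bases 68 to 127: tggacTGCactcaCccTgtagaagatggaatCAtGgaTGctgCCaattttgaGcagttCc
Rpl22l1, coding bases 53 to 112: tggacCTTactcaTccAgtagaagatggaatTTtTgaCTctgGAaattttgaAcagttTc
Rps27 was the most abundant gene of the set, at 5391, 4141, 3765 and 4181 TPM in Control 1 to 4 and 4109, 4103, 4798 and 5268 TPM in SiglecXII 1 to 4, and Rps27l stood between 290 and 361 TPM. Rpl22 ranged from 757 to 1024 TPM and Rpl22l1 from 168 to 248 TPM. Of the other paralogs, Rpl7l1 ranged from 37.9 to 60.6 TPM, and Rpl3l, the muscle form of Rpl3, reached at most 0.549 TPM beside 1078 to 1559 TPM for Rpl3. Rpl39l, a testis form, was listed at 0 in 6 of 8 samples and reached 0.126 TPM, and Rpl10l, a testis retrogene, was listed at 0 in every sample. Among the 5 further loci, Rps12l1 was also listed at 0 throughout, and Rpl32l and Rps3a2 reached at most 0.392 and 0.558 TPM.

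Rps4l varied most of all tested genes of the set. This relative of the X-linked 40S gene Rps4x is annotated as a transcribed processed pseudogene in GENCODE M21, and it stood at 18.5, 21.3, 47.1 and 51.7 TPM in the Control samples and 28.2, 54.9, 31.1 and 16.8 TPM in the SiglecXII samples. Both groups thus held low and high samples, with a mean within-group SD of 0.71 on the log2(TPM + 1) scale against a median of 0.16 over the 81 genes. Rps4x itself ranged only from 1311 to 1986 TPM. The least variable were Rpl5 (0.023), Rpl31 (0.086) and Rplp2 (0.098). The low SD of Rpl5 belongs to the gene alone, which held 1.86% of the TPM of the gene and its copies. With its copies Rpl5 ranged from 1556 to 2294 TPM.

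RefSeq promoters (GRCm38.p6) were on hand for 64 of the 89 genes, with 76 starts. The letters CTTTC, a common core of the TOP motif, occurred on the gene's strand within 20 bases before to 20 bases after the start in 19 of 76 promoters (25.0%), against 5.49% of all 32851 promoters in the same window. The reverse complement GAAAG was found in 5.26% of the ribosomal and 4.86% of all promoters, and either strand in 28.9% and 10.2%. The letters CCGGAAG, the core bound by ETS factors such as GABP, or CTTCCGG on the other strand, occurred between 250 bases before and 50 bases after the start in 35.5% of ribosomal and 8.86% of all promoters. For 5 genes the windows of 30 bases, from 10 before to 20 after the annotated start, are printed. The first CTTTC in each window is in capitals. Rps27 has another CTTTC, left in lower case, that lies after the annotated start. Neither motif contains the other.
Rplp2, chr7:141447641-141447670, plus strand: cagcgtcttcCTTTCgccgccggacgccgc
Rpl38, chr11:114668570-114668599, plus strand: aagcctcgttCTTTCcccgttctcttcggt
Rpl28, chr7:4792955-4792984, plus strand: tctcgtgtctctCTTTCcgtctccggccgc
Rps10, chr17:27635225-27635254, minus strand: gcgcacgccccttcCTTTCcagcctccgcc
Rps27, chr3:90213629-90213658, minus strand: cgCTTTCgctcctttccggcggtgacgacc
A letter match is a description of these windows and not a measured start or a bound site.

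The share of all TPM held by the 89 genes was 15.8, 12.1, 11.0 and 12.0% in Control 1 to 4 and 11.5, 11.2, 12.5 and 12.1% in SiglecXII 1 to 4. Control 1 stood above the other 7 samples, and the other 3 Control samples overlapped the SiglecXII samples. The Control mean was 12.7% ± 2.09 (SD, n = 4) and the SiglecXII mean 11.8% ± 0.581 (SD, n = 4), a difference of -0.919 percentage points that is smaller than the SD of the Control samples. Without Control 1 the Control mean was 11.7% ± 0.611 (SD, n = 3) and the difference turned to 0.098 percentage points. Large and small subunit genes kept step, since the ratio of 60S to 40S TPM lay between 1.23 and 1.27 in every sample. The 299 copies added between 1.81 and 2.55% of TPM, highest in Control 1 as well. The genes of the mitochondrial genome held 5.74 to 7.38% of TPM in Control and 8.50 to 12.8% in SiglecXII, with no overlap. With those genes out of the denominator the ribosomal share differed by -0.516 percentage points, and with only nuclear protein-coding genes in it by -0.073. Without Control 1 these differences were 0.574 and 1.07 percentage points.

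**Figure D2:**
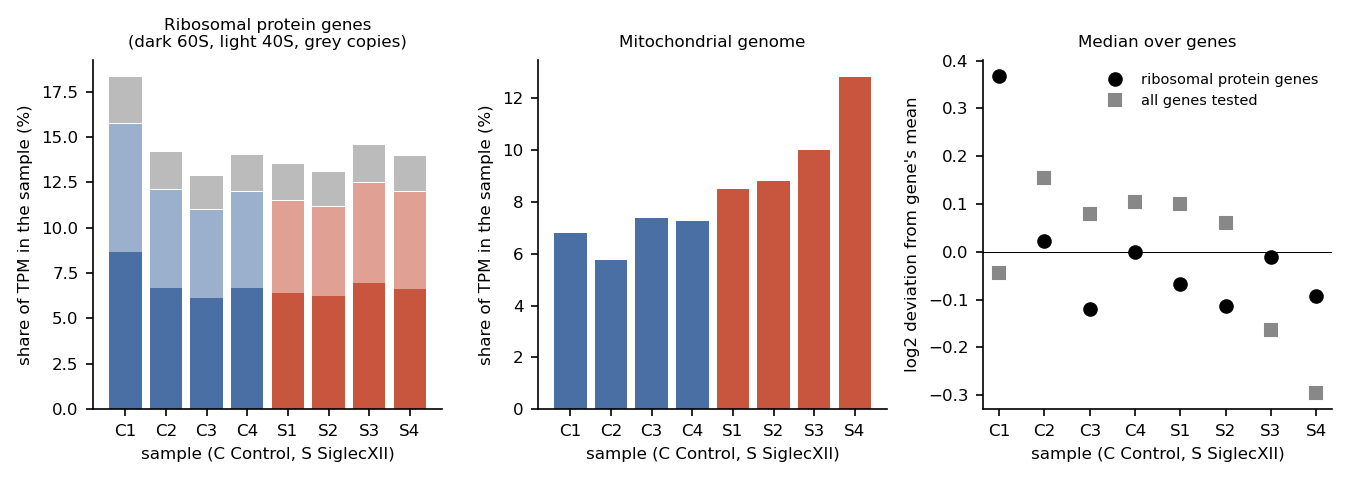
Left, share of TPM (%) in each sample held by 60S genes (dark), 40S genes (light) and copies (grey), in the middle the share of the mitochondrial genome (%), and right the median log2 deviation of each sample from the gene means, over the 81 ribosomal protein genes (circles) and all 13164 genes tested (squares). Control 1 is highest on the left and SiglecXII 4 is highest in the middle (12.8%).

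The excess in Control 1 ran through nearly the whole set. Of the 81 genes, 80 lay above their own 8-sample mean in Control 1, and 74 were highest there, whereas 15.0% of all genes tested were highest in that sample. Relative to the mean of the other 3 Control samples, the median gene was 1.33-fold higher, from 0.461-fold (Rps4l) to 1.58-fold (Rpl39), and the median over all genes was 0.879-fold. The acidic stalk protein gene Rplp1 stood at 5683 TPM in Control 1 and between 3927 and 4238 TPM in the other 7 samples. Rplp0, the scaffold of the same stalk, stood at 3965, 2867, 2741 and 3066 TPM in Control and 3008, 2876, 3598 and 3487 TPM in SiglecXII. The summed level of 5 B and plasma cell markers was 17.2 TPM in Control 1, 1.58 to 5.92 TPM in the other Control samples and 0.944 to 2.33 TPM in SiglecXII, with Cd79a and Mzb1 at 0 in at least 1 sample. The 6 macrophage markers summed to 27.5 TPM in Control 1, to 9.74 to 16.0 TPM in the other Control samples and to 6.45 to 11.1 TPM in SiglecXII. The 8 epithelial markers summed to 13470 TPM in Control 1, the lowest sample. They summed to 14669 to 18069 TPM in the other Control samples and to 13653 to 17641 TPM in SiglecXII. The 10 proliferation markers summed to 231 TPM in Control 1 and to 319 to 355 TPM in the other Control samples. In SiglecXII they summed to 150 to 277 TPM. The 4 neutrophil markers, with Csf3r at 0 in at least 1 sample, summed to 23.4 TPM in Control 1. Their sum was 29.3 to 132 TPM in the other Control samples and 2.27 to 8.67 TPM in SiglecXII. Only some of the marker lists are given here. The part of any of these cells in the ribosomal excess was not tested.

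Between groups, none of the 81 genes passed an adjusted p of 0.05 (limma on log2(TPM + 1), Benjamini-Hochberg over 13164 genes), where 0.038% of all genes tested did. The smallest adjusted p of the set by limma was 0.515. At an unadjusted p of 0.05, 6 genes were lower in SiglecXII and 0 higher. The 6 are 7.41% of the set, beside 7.67% of all genes tested that were called lower and 1.19% called higher. The median log2 difference over the set was -0.14 and over all genes tested -0.15, and 71 of 81 genes (87.7%) had a difference below 0 beside 78.1% of all genes, and 10 genes had one above 0 beside 21.9%. The log2 differences spanned -0.34 (Rpl12) to 0.21 (Rps14). In 6 genes (Rpl23a, Rpl8, Rps4x, Rpl6, Rpl14 and Rpl5) every SiglecXII sample lay below every Control sample, which is 7.41% of the set and was the case for 4.06% of all genes tested, and no gene had the opposite order, which 1.05% of all genes had. Rpl23a and Rpl8 fall outside the rule for named genes and were named after their values were seen. Without Control 1, 1 gene (Rpl14) was lower and 0 higher at an unadjusted p of 0.05, where 7.51% of all genes tested were lower and 0.942% higher. The median difference of the set was then -0.05, with 51 of 81 differences below 0 beside 82.3% of all genes. The count of 6 also fell to 1 without SiglecXII 3 (2.93% of all genes called lower) or without SiglecXII 4 (3.18%), and to 2 without Control 2 (5.3%) or without SiglecXII 2 (10.8%). It rose to 10 without SiglecXII 1, which is 12.3% of the set beside 16.6% of all genes, and to 16 without Control 3, which is 19.8% beside 8.14%.

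**Figure D3:**
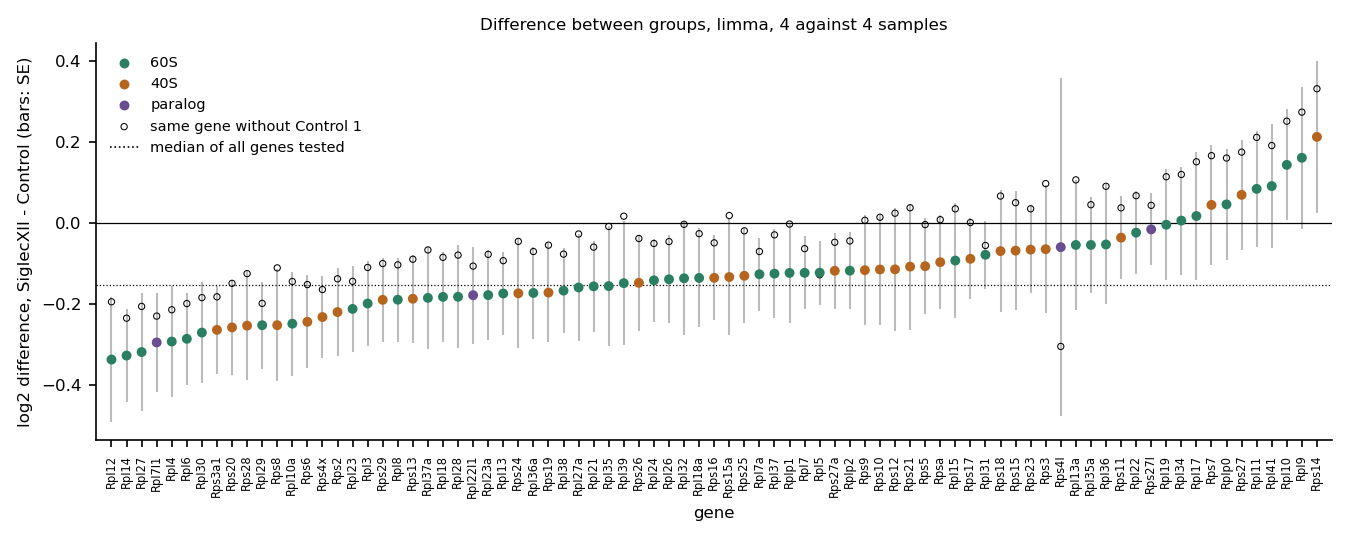
Log2 difference (SiglecXII minus Control) of each of the 81 tested genes, with the limma SE as bars, coloured by subunit (green 60S, brown 40S, purple paralog), and as open circles the same genes without Control 1. Most filled points lie between 0 and -0.34 around the dotted median of all genes (-0.15), and the open circles lie higher for nearly every gene.

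The 60S genes with the smallest p were Rpl14, Rpl6 and Rpl29. Rpl14 stood at 967, 796, 715 and 738 TPM in Control and 691, 655, 643 and 563 TPM in SiglecXII. Every SiglecXII sample was lower, and the log2 difference was -0.33 (SE 0.11, unadjusted p = 0.019 and adjusted p = 0.515, limma). Rpl6 stood at 1307, 1074, 985 and 1025 TPM in Control and 972, 938, 905 and 778 TPM in SiglecXII, again without overlap, with a log2 difference of -0.29 (SE 0.11, unadjusted p = 0.034 and adjusted p = 0.515, limma). Rpl29, a 60S protein that binds heparin at the cell surface, stood at 1216, 1076, 1013 and 1053 TPM in Control and at 1015, 964, 923 and 769 TPM in SiglecXII, where SiglecXII 1 overlapped with Control 3 (unadjusted p = 0.043, limma). Rpl4 had a larger log2 difference (-0.29) than Rpl29 (-0.25) but a wider spread, from 1252 to 1590 TPM in Control and 877 to 1285 TPM in SiglecXII, and did not pass (unadjusted p = 0.060, limma).

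Among 40S genes, Rps3a1 and Rps4x passed the unadjusted threshold. Rps3a1 stood at 2151, 1824, 1605 and 1725 TPM in Control and 1613, 1515, 1567 and 1365 TPM in SiglecXII, with a log2 difference of -0.26 (SE 0.11, unadjusted p = 0.037, limma), and SiglecXII 1 lay above the lowest Control sample. Rps4x stood at 1986, 1718, 1595 and 1625 TPM in Control and 1588, 1521, 1467 and 1311 TPM in SiglecXII, all lower, with a log2 difference of -0.23 (SE 0.10, unadjusted p = 0.047, limma). Rps6, the substrate of the S6 kinases that lie downstream of mTOR, stood at 2290, 1896, 1648 and 1791 TPM in Control and 1674, 1661, 1639 and 1431 TPM in SiglecXII. Its groups overlapped and its log2 difference of -0.24 did not pass (SE 0.11, unadjusted p = 0.063, limma). Rps27a, which is made as a fusion with ubiquitin, ranged from 1234 to 1652 TPM with a log2 difference of -0.12 (unadjusted p = 0.241, limma). The paralog Rpl7l1 was the sixth gene past the unadjusted threshold, with a log2 difference of -0.29 (SE 0.12, unadjusted p = 0.040, limma), while Rpl7 itself differed by -0.12 (unadjusted p = 0.205, limma). None of the 6 passed when SiglecXII 3 and 4 were left out, a choice made after seeing the data, where 1.57% of all genes were called lower. Their log2 differences were then between -0.14 (Rpl29) and -0.25 (Rpl14). In that comparison of 4 with 2 samples 79 of the 81 genes had a difference below 0, with a median of -0.15, beside 49.1% of all genes and a median of 0.0031. With the sample medians set equal none of the 6 passed either, beside 2.16% of all genes called lower. In that fit 65 of the 81 differences were above 0, beside 8090 of all 13164 genes tested.

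Of the 81 tested genes, 35 were lowest in Control 3 and 28 in SiglecXII 4. Rpl14, Rpl6, Rpl29, Rps3a1, Rps4x and Rpl7l1 were each lowest in SiglecXII 4, the sample in which the median of all genes tested also lay lowest (-0.30 on the log2 scale, beside -0.16 in SiglecXII 3 and -0.05 to 0.15 in the other 6). The summed level of 8 smooth muscle markers was 311 TPM in that sample, 580 to 665 TPM in the other SiglecXII samples and 645 to 1028 TPM in Control. The 10 proliferation markers summed to 150 TPM there, 245 to 277 TPM in the other SiglecXII samples and 231 to 355 TPM in Control, and no marker of either list was at 0 in any sample. Other lists were highest in SiglecXII 4. The 6 goblet markers summed to 15613 TPM there and to 9790 to 13898 TPM in the other samples. The 6 fibroblast markers summed to 73.9 TPM there and to 12.7 to 40.4 TPM in the other samples. The part of these cell types in the lower values was not tested.

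Gene and copies were also summed, an alternative chosen after seeing the data. Of the 17 genes with an abundant copy, the log2 difference became smaller in size in 12 and larger in 5. Rps12 had the largest increase, from -0.11 alone to -0.23 with its copies, and Rpl23, Rpl28, Rpl35 and Rps16 moved by less; these and Rps28 were named after their values were seen. Rpl12 alone had the most negative log2 difference of the set, -0.34, and with its copies -0.14. Rpl27 moved from -0.32 to -0.08, and Rpl10, a 60S protein of the subunit interface with a positive difference of 0.14 alone, moved to -0.01. Rpl10 was 951 TPM in SiglecXII 2 and 740 to 772 TPM in the other SiglecXII samples, while the summed level of Rpl10 and its copies was 2374 TPM in SiglecXII 2 and 2098 to 2405 TPM in the others. For Rps28 the log2 difference went from -0.25 to -0.08, since its copy Gm10443 stood at 195, 166, 122 and 303 TPM in Control and 563, 305, 534 and 221 TPM in SiglecXII. Rpl5, which had no overlap between groups alone, overlapped with its copies, at 1556 to 2294 TPM in Control and 1608 to 1928 TPM in SiglecXII. The count of genes past the unadjusted threshold stayed at 6, with the same genes, beside 7.74% of all genes called lower in that fit. Rpl14 and Rps14 then marked the ends of the range, at -0.33 and 0.21.

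The positive end of the ranking was held by Rps14 and Rpl9. Rps14, on chromosome 18 and deleted in the 5q- syndrome in its human form, stood at 3127, 2296, 2109 and 2353 TPM in Control and 2288, 2315, 3288 and 3686 TPM in SiglecXII. SiglecXII 3 and 4 were the highest 2 samples, SiglecXII 1 and 2 lay among Control 2 to 4, and the log2 difference of 0.21 was close to its SE of 0.19 (unadjusted p = 0.288, limma). Rpl9 stood at 3120, 2354, 2123 and 2382 TPM in Control and 2238, 2361, 3098 and 3545 TPM in SiglecXII, with a log2 difference of 0.16 (SE 0.18, unadjusted p = 0.383, limma). Rpl41, which encodes the shortest ribosomal protein, stood at 4742, 3565, 3333 and 3910 TPM in Control and 3751, 3383, 4771 and 4685 TPM in SiglecXII. Rpl11, the partner of Rpl5 in the 5S particle that binds MDM2, differed by 0.08 (unadjusted p = 0.570, limma). Without SiglecXII 3 and 4 the differences of Rps14, Rpl9, Rpl41, Rpl11, Rps27 and Rplp0 were all below 0, from -0.05 (Rpl11) to -0.11 (Rpl41). Rpl13a, also among the 5 most abundant genes, differed by -0.05 (unadjusted p = 0.744, limma).

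SiglecXII 4 was also the sample in which the genes parted most from each other. After the median over the 81 genes was taken from each sample, the 77 core genes had an SD of 0.18 in SiglecXII 4 and 0.10 in SiglecXII 3, and between 0.071 and 0.096 in the other 6 samples, on the log2 scale. In SiglecXII 4 they ran from -0.38 (Rpl4) to 0.58 (Rps14), in SiglecXII 3 from -0.21 (Rpl27) to 0.33 (Rps14). Across the 77 genes the value in SiglecXII 4 went with the mean TPM (Spearman rho = 0.43, a description over genes that share 1 library), as did the value in SiglecXII 3 (rho = 0.46) and the log2 difference between groups (rho = 0.36), while the value in SiglecXII 4 went little with coding length (rho = -0.22) or coding GC content (rho = 0.063).

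**Figure D4:**
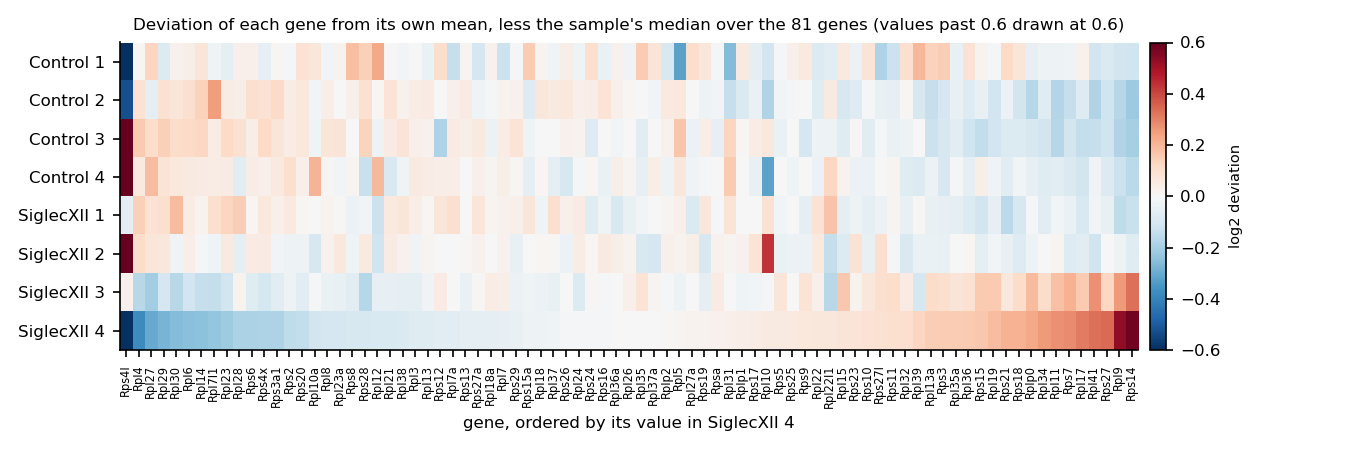
Log2 deviation of each of the 81 tested genes from its own 8-sample mean, less the sample's median over the 81 genes, with samples as rows and genes as columns ordered by SiglecXII 4 (red above, blue below, values past 0.6 drawn at 0.6). Among core genes, SiglecXII 4 and, more weakly, SiglecXII 3 run from blue (Rpl4, -0.38 in SiglecXII 4) to red (Rps14, 0.58), while the pseudogene Rps4l has the widest values of all (-1.07 in Control 1, 0.93 in SiglecXII 2 and -0.74 in SiglecXII 4).

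The naming rule does not reach Fau and Rack1, and neither passed the unadjusted threshold. Fau, fused to the 40S protein eS30, ranged from 2508 to 3741 TPM with a log2 difference of -0.04 (unadjusted p = 0.760, limma), and the 40S scaffold Rack1 from 1366 to 1938 TPM with 0.03 (unadjusted p = 0.807, limma). The 78 genes of the mitochondrial ribosome, which is built from a separate family of proteins, had a median log2 difference of -0.05. At an unadjusted p of 0.05, 0 were higher and 1 was lower (Mrps25, -0.24), beside 1.19% of all genes called higher and 7.67% lower. Mrps18c at 0.20 just missed that threshold (unadjusted p = 0.051, limma). The 78 genes held 0.478 to 0.533% of TPM in Control and 0.487 to 0.526% in SiglecXII.

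Of the genes that build and serve ribosomes, none passed an adjusted p of 0.05 and none was higher at an unadjusted p of 0.05, and the numbers that passed in the lower direction are given for each list, to be read beside the 7.67% of all genes called lower and the 78.1% below 0. Of 40 ribosome assembly factors 38 had a difference below 0 and 11 passed the unadjusted threshold, with a median log2 difference of -0.31 (-0.12 without SiglecXII 3 and 4, and 6 genes past the threshold without Control 1). Rrs1, needed for 60S assembly, stood at 21.6, 18.7, 14.3 and 14.8 TPM in Control and 13.4, 11.3, 9.62 and 7.19 TPM in SiglecXII, without overlap (log2 difference -0.70, SE 0.20, unadjusted p = 0.007 and adjusted p = 0.515, limma), and Grwd1, a chaperone of the 60S protein Rpl3, differed by -0.50 (unadjusted p = 0.006, limma). Of 14 RNA polymerase I genes, which serve the transcription of ribosomal RNA, 3 passed (median -0.26), with Polr1a at -0.71 and Polr1b at -0.52. Of 14 genes of mTOR and MYC control 1 passed (median -0.22, and 0.08 without SiglecXII 3 and 4). It was Myc, at 31.5, 28.5, 18.1 and 24.4 TPM in Control and 15.7, 16.1, 10.3 and 8.49 TPM in SiglecXII, with every SiglecXII sample lower (log2 difference -0.98, SE 0.24, unadjusted p = 0.002 and adjusted p = 0.515, limma), and Mtor differed by -0.31 (unadjusted p = 0.070, limma).

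Of 6 elongation factors 2 passed (median -0.25; Eef1g -0.39, Eef1d -0.30), and of 30 initiation factors 2 passed (median -0.17; Eif5b -0.63, Eif3d -0.29). Of 18 other genes with TOP mRNAs, a list that holds some of the factors above, 4 passed (median -0.16; Nap1l1 -0.66, Npm1 -0.40). Of 7 host genes of snoRNAs, the guides of ribosomal RNA modification, 2 passed (median -0.22; Snhg12 -0.31, Snhg8 -0.22). The genes of the mitochondrial genome went the other way, with 16 of 28 tested higher (beside 1.19% of all genes) and 0 lower and a median of 0.52, led in p by the tRNA genes mt-Tp (0.60) and mt-Te (1.07). With SiglecXII 3 and 4 left out, 2 of 40 assembly factors, 1 of 14 mTOR and MYC genes, and 0 of 14 RNA polymerase I genes were called lower, beside 1.57% of all genes. In that fit 5 of 28 genes of the mitochondrial genome were called higher, beside 155 of all 13164 genes tested.

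Colon markers were present throughout. Epithelial (8 genes, summed 13470 to 18069 TPM), goblet (6 genes, 9790 to 15613 TPM) and colonocyte markers (4 genes, 4057 to 5599 TPM) were high in all samples. The numbers past the unadjusted threshold were 0, 1 and 0, and the goblet gene was higher in SiglecXII, beside 1.19% of all genes called higher. T cell (5 genes) and enteric neuron or glia markers (5 genes) had no gene that could be tested. Lower at an unadjusted p of 0.05 were 4 of 8 smooth muscle, 2 of 4 macrophage, 2 of 2 neutrophil, 1 of 2 endothelial, 2 of 10 proliferation and 3 of 4 crypt stem cell genes tested, and 0 of 5 fibroblast, 0 of 3 adipocyte and 0 of 1 B and plasma cell genes. Of all genes tested, 7.67% were called lower.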

How the data were processed

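Distal colon (8 samples) was profiled by RNA-seq. The labels name the TruSeq Stranded Total RNA Gold kit with paired reads of 100 bases, and the methods an mRNA kit. The authors quantified transcripts with kallisto (0.45.0 per the submitters' processing notes, build GRCm38) and deposited gene values as log2(TPM + 1). TPM keeps no read depth, so depth is unknown and no counting interval is given. Values were returned to TPM for levels and shares. The 13164 genes that reached 1 TPM in 4 or more samples were compared between groups on the deposited log2 scale by limma (version 3.58.1, run under R 4.3.3), using a moderated variance with an intensity trend, no covariate and Benjamini-Hochberg adjustment over these genes. A fold on this scale understates changes of low genes. The members and lists were chosen with earlier results of these data known. Lists are described by counts and medians without a test, and some of their genes, and a share that needed them, are not reported here. Windows of 31 bases were compared with GENCODE M21 transcripts; all 89 gene identifiers were found there, and 98.3% of all identifiers. A copy is assigned to the gene with which it shares most windows. Promoters came from RefSeq (GRCm38.p6). Named genes were the 5 highest and 5 lowest in mean TPM, the 5 largest differences in each direction, the 5 smallest p, the 3 largest and smallest within-group SD, subunits with special roles and their paralogs, and up to 2 genes of each pathway list by p. Marker lists covered epithelium, goblet cells, colonocytes, smooth muscle, fibroblasts, endothelium, T cells, B and plasma cells, macrophages, neutrophils, enteric neurons and glia, adipocytes, proliferation and crypt stem cells. The alternatives were other filters, pseudocounts, scalings, weights, variance estimates, a replicate block, denominators of the share, and leaving out each sample.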

Additional observations from a re-analysis of the deposited data

Results flagged for a closer look

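In 3 of 102 groups of 4 samples examined for 1 sample far from the rest, the gap to the nearest sample exceeded Dixon's limit for 4 samples, where chance gives about 5.1. They were Rpl39 in Control, where Control 1 was far above (gap over range 0.941), Rps6 in SiglecXII, where SiglecXII 4 was far below (0.865), and Rpl10 in SiglecXII, where SiglecXII 2 was far above (0.833). Over all 81 tested genes 10 of 162 groups exceeded the limit, where chance gives about 8.1, 5 of them through Control 1.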

How the results depend on the processing

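No ribosomal protein gene passed an adjusted p of 0.05 under any alternative run with limma. The count lower at an unadjusted p of 0.05 moved from 6 (7.41% of the set, beside 7.67% of all genes) to 0 under median centring (2.16% of all genes), to 15 with array weights (18.5% of the set, 10.8% of all genes) and to 0 without SiglecXII 3 and 4 (1.57% of all genes), and ran from 1 to 16 when samples were left out in turn (1 without Control 1, SiglecXII 3 or SiglecXII 4, 2 without Control 2 or SiglecXII 2, 10 without SiglecXII 1 and 16 without Control 3). Under quantile normalization the count lower was 4 (4.94% of the set, 3.1% of all genes) and the count higher 0, beside 704 of all genes called higher. The count higher moved from 0 to 1 with array weights, where 432 of all 13164 genes tested were called higher. The median difference moved from -0.14 to 0.078 under median centring, where the median of all genes moved to 0.060, and ran from -0.20 to -0.045 when samples were left out. The share difference ran from -1.49 to 0.098 percentage points when samples were left out.

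Of 899 values of named genes under alternatives, 53 changed sign and 0 passed an adjusted p of 0.05. Under median centring the log2 differences that changed sign were Rpl13a 0.16, Rplp1 0.090, Rps4l 0.15, Rpl5 0.090, Rpl31 0.13, Rplp2 0.095, Rps27a 0.095, Rpl22 0.19, Rpl22l1 0.035, Rps27l 0.20, Rpl3 0.014, Rpl39 0.065, Rpl7 0.090 and Fau 0.17. Under quantile normalization they were Rplp0 -0.0062, Rpl41 -0.088, Rps27 -0.067, Rps4l 0.087, Rpl5 0.016, Rpl31 0.019, Rpl22 0.046 and Rps27l 0.065. With array weights they were Rplp0 -0.016, Rpl41 -0.073, Rps4l 0.39, Rpl22 0.0063, Rps27l 0.011 and Rack1 -0.060. Without SiglecXII 3 and 4 they were Rplp0 -0.088, Rpl41 -0.11, Rps27 -0.077, Rpl11 -0.048, Rpl9 -0.10, Rps14 -0.086, Rps4l 0.32 and Rack1 -0.13, and with copies summed Rpl10 -0.012, both chosen after seeing the data. When samples were left out in turn, sign changes occurred in the ranges Rpl13a -0.15 to 0.11, Rplp0 -0.017 to 0.16, Rps27 -0.0017 to 0.17, Rps4l -0.34 to 0.21, Rpl22 -0.077 to 0.067, Rps27l -0.061 to 0.044, Rpl39 -0.21 to 0.017, Fau -0.12 to 0.069 and Rack1 -0.026 to 0.14.

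The other filters, the pseudocount of 0.1 and unmoderated variance kept the count lower between 5 and 6, beside 5.35 to 7.51% of all genes. The genes called were not all the same. With no filter Rpl5 was called and Rps4x was not. With unmoderated variance Rpl5 was called and Rpl29 and Rpl7l1 were not. With the replicate block the count lower was 8 (9.88% of the set, 6.19% of all genes). Same-numbered samples correlated between -0.20 and 0.10 over all genes, 0 of 4 Control samples correlated best with their own number, and the labels tie no number to a shared litter or day. The cause of these shifts was not tested. TPM without read counts limits what can be said of the genes near 0.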
